A study of Caenorhabditis elegans with 2 samples.

Results

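ChIP-seq of an eGFP-EGL-5 fusion in whole Caenorhabditis elegans gave 28619 relaxed peaks when both replicates were pooled, and 272 of them had a summit within 500 bp of a gene for a small nucleolar RNA (snoRNA) or small nuclear RNA (snRNA). These 272 regions, called sn/snoRNA peaks here, were chosen by position alone: the summit lay within 500 bp of the annotated span of such a gene and more than 500 bp from every tRNA gene. The nearest gene was a snoRNA gene for 231 peaks and an snRNA gene for 41. The worms were L3 larvae of strain OP54, with unc-119(ed3) III and the insertion wgIs54 that targets egl-5, and the labels give both sexes as pooled. EGL-5 is a Hox protein of posterior cells, while the material was whole animals. There was 1 group of 2 biological replicates and no group to set it against, so nothing was compared between conditions, and every set below is a set of regions of the same worms. A control alignment named in the deposited notes was not analysed here.

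snRNAs form the cores of the spliceosome, and in nematodes the spliced leader RNAs SL1 and SL2 donate a short leader to messenger RNAs by trans-splicing, SL2 mainly to downstream genes of operons. snoRNAs guide 2′-O-methylation and pseudouridylation of ribosomal and other RNAs, working with proteins such as fibrillarin. Genes for snRNAs have an upstream element read by the SNAPc complex, while snoRNAs either lie in introns of host genes and are released from the host transcript or have promoters of their own.

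The peaks are shown first as DNA. The 8 sequences are the highest-scoring sn/snoRNA peaks in the thresholded list on chromosomes II to V, as 60 bases on each side of the summit on the strand of the RNA gene, 5′ to 3′, from the reference genome (WBcel235, the same assembly as ce11). Capitals mark the hexamers AACCCG and TGTCGG, found most often upstream of snRNA starts, and GTTCGA, the core of box B, an internal promoter element of tRNA genes.

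F54E7.10 (snoRNA in rps-12, chrIII:5679073-5679193, + strand): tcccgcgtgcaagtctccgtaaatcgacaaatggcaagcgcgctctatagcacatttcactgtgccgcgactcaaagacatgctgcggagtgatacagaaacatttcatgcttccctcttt
sls-2.2 (SL2 RNA, chrII:5543546-5543666, + strand): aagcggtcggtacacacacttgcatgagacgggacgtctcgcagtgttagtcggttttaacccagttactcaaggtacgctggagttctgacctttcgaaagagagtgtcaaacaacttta
M7.15 (snoRNA, chrIV:11083014-11083134, + strand): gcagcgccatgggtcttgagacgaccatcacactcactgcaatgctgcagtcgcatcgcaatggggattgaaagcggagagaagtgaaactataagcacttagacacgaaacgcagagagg
W05B2.8 (snRNA, chrIII:10989598-10989718, + strand): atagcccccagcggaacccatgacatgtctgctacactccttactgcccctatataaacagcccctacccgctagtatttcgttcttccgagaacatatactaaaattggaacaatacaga
sls-2.1 (SL2 RNA, chrII:5844754-5844874, + strand): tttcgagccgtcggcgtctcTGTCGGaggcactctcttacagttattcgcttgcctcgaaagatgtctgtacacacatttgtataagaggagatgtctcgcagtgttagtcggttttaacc
F32E10.10 (snoRNA, chrIV:7574066-7574186, + strand): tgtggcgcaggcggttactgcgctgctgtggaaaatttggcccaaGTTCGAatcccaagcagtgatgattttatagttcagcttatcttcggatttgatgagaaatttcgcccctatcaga
Y53F4B.47 (snoRNA, chrII:15025932-15026052, − strand): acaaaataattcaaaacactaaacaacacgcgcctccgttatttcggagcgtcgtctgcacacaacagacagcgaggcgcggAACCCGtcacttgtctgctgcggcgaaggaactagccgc
F09G2.14 (snoRNA, chrV:7196579-7196699, − strand): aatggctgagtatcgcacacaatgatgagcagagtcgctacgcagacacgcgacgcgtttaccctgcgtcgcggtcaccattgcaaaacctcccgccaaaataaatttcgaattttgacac

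Of these 8 sequences, 3 hold 1 of the hexamers and 5 hold none. Counted from the first base of the RNA as 0, with upstream bases negative, AACCCG began at −77 at Y53F4B.47, TGTCGG at −91 at sls-2.1 and GTTCGA at −11 at F32E10.10. The printed windows of sls-2.1, sls-2.2, W05B2.8, F32E10.10 and F09G2.14 contain the annotated first base of the RNA.

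Peaks near snoRNA and snRNA genes scored higher than the pooled list as a whole. The score is the signal value of each peak on the authors' own scale. The thresholded list, which keeps peaks whose rank holds between replicates by the irreproducible discovery rate (IDR), consisted of the 2570 highest-scoring pooled peaks, with scores from 30.8 up, so being on it is a score cut within 1 pooled list. It held 76 of the 272 sn/snoRNA peaks (27.9%, 95% exact binomial interval 22.7 to 33.7), against 8.98% of all pooled peaks. The median score was 17.4 near snoRNA and snRNA genes (95% interval of the median 15.2 to 19.9), against 10.5 over all pooled peaks. Such intervals cover counting error only, and the depth behind each peak is unknown because the lists hold no read counts. The pooled list is described by its authors as peaks and background, so a peak outside the IDR list may be background.

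**Figure D1:**
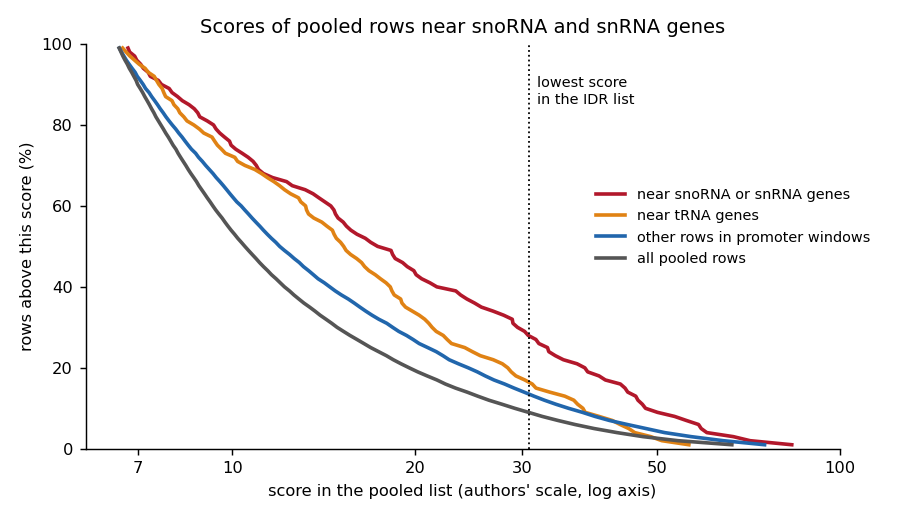
Share of pooled peaks (y axis, percent) above each score (x axis, authors' scale, log axis) for 272 peaks near snoRNA or snRNA genes, 446 near tRNA genes, 9876 other peaks in protein-coding promoter windows and all 28619; the dotted line is the lowest score in the IDR list, 30.8. The curve of the sn/snoRNA peaks lies to the right, with medians of 17.4, 15.3, 11.97 and 10.5 in the order named.

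Many of the RNA genes lie close to protein-coding genes, so promoters were taken apart. Promoter window here means the 1000 bp before and the first 200 bp after an annotated start of a protein-coding transcript, and 105 sn/snoRNA peaks (38.6%) had their summit in one, against 34.9% of all pooled peaks. Inside these windows the IDR list held 45 of 105 sn/snoRNA peaks (42.9%, interval 33.2 to 52.9), against 13.9% of all pooled peaks there. Outside them it held 31 of 167 (18.6%, interval 13.0 to 25.3), against 6.34% of all pooled peaks there. Both shares of the sn/snoRNA peaks were above those of pooled peaks in the same kind of location. Which of the 2 kinds of gene a peak in a promoter window belongs to cannot be told apart by position. For 237 peaks the start of the RNA gene was closer to the summit than any protein-coding start, and 63 of these (26.6%) were in the IDR list. Of the 35 that were closer to a protein-coding start, 13 (37.1%) were.

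Peaks near tRNA genes lay between the sn/snoRNA peaks and the whole list. There were 446 of them, with 74 (16.6%, interval 13.3 to 20.4) in the IDR list and a median score of 15.3. The rule left out 2 pooled peaks because a tRNA gene was also near, at sls-2.9 (score 21.7) and at the snoRNA gene M163.14 (score 18.0), and neither was in the IDR list.

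SL2 genes had the highest share of genes with an IDR summit among the classes of RNA gene counted. Of 18 sls-2 genes, 6 had an IDR summit within 500 bp (33.3%, interval 13.3 to 59.0) and 11 had any sn/snoRNA peak. By peaks, 6 of 13 were in the IDR list (46.2%, interval 19.2 to 74.9), and outside protein-coding promoter windows 2 of 7 were (28.6%, interval 3.67 to 71.0). Of the 6 IDR peaks, those at sls-2.1, sls-2.4, sls-2.7 and sls-2.8 lay in a promoter window, and those at sls-2.2 and sls-2.3 did not. The peak at sls-2.4 led all sn/snoRNA peaks, with a pooled score of 121.5, and scores of 56.7 in replicate 1 and 65.7 in replicate 2. At sls-2.2 the pooled score was 86.9, with 43.9 in replicate 1 and 38.7 in replicate 2. At sls-2.1 it was 71.4, with 34.8 in replicate 1 and 38.2 in replicate 2. At all 3 the peak was among the 2570 highest-scoring of each replicate list. The other SL2 genes with IDR peaks were sls-2.8 (58.7), sls-2.3 (44.8) and sls-2.7 (44.8), and sls-2.7 was the least even, with 10.2 in replicate 1 and 33.1 in replicate 2. The 6 summits lay from 58 bp upstream to 8 bp inside the gene, at a median of −41 bp. The next SL2 peaks were far weaker: sls-2.16 had 19.9, and sls-2.10, sls-2.11, sls-2.14 and sls-2.15 had between 6.78 and 11.2. The 7 SL2 peaks outside the IDR list included second peaks at sls-2.1 (26.5, at +152) and sls-2.4 (24.99, at +192), which share their replicate peak with the first. None of the 12 SL1 genes (sls-1), which fall into families of 10 and 2 genes at 80% sequence identity, had a pooled peak (interval of the share 0 to 26.5%). The same absence held for the 20 annotated rRNA genes (interval 0 to 16.8%), so it was not particular to SL1 genes. How far the rRNA genes lie from the SL1 genes was not examined, so these counts may not be independent.

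The rest of the snRNA genes had fewer IDR peaks per gene. Of the 89 snRNA genes outside the spliced leader and SmY classes, 4 had an IDR summit (4.49%, interval 1.24 to 11.1), and 26 peaks lay near them, 5 of them in the IDR list. W05B2.8 (WBGene00014543), inside the dynein heavy chain gene dhc-4 on the same strand and 1785 bp from the nearest protein-coding start, had a pooled score of 74.2, with 31.9 in replicate 1 and 36.2 in replicate 2. C52E4.8 (WBGene00014291) had pooled peaks of 60.4 and 33.5, both within the promoter window of snr-4, which encodes an Sm protein of the snRNP core. They share 1 peak in each replicate list, with 34.8 in replicate 1 and 24.9 in replicate 2. F38E11.10, also in a promoter window, had 46.7, with 20.6 in replicate 1 and 26.5 in replicate 2. The peak at sup-6, a U1 snRNA gene known from suppressor alleles that change splice site choice, had 38.0, with 22.8 in replicate 1 and 13.5 in replicate 2, and its summit lay at +129. sup-39, the U1 gene of the same kind, stayed below the IDR list with 25.6, and with 13.6 in replicate 1 and 13.3 in replicate 2. The 5 highest-scoring snRNA peaks outside the list were F54D8.7 (30.4), sls-2.1 (26.5), sup-39 (25.6), sls-2.4 (24.99) and W05B2.8 (24.5). Of the 10 annotated SmY snRNA genes, 3 had a pooled peak and 1 an IDR summit within 500 bp. The 2 peaks whose nearest gene was of this class, at smy-6 and smy-4, had scores of 10.4 and 8.36. The IDR summit, with a score of 44.2, lay within 500 bp of smy-1 but nearest to smy-2, which the annotation lists as a snoRNA gene, at −16 from its start, with 17.9 in replicate 1 and 28.4 in replicate 2.

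Over all snRNA genes, 11 of 129 (8.53%, interval 4.33 to 14.7) had an IDR summit, and over all snoRNA genes 67 of 346 (19.4%, interval 15.3 to 23.9). The same count at protein-coding genes was 2080 of 19973 (10.4%) over the gene span with 500 bp on each side, and 6.81% within 500 bp of the 5′ end. At tRNA genes it was 14.5%, at miRNA genes 5.75% and at piRNA genes 0.814%. For the RNA genes themselves, span and 5′ end hardly differ, with 78 and 77 of 475. Many snRNA genes are near copies of each other. The sls-2 family of 15 such genes had 6 with an IDR summit, the family of 23 that holds W05B2.8 had 1, and how reads from copies were placed was not stated. Counted by peaks, those at genes with such a copy were in the IDR list in 16 of 53 cases (30.2%), and those at genes without one in 60 of 219 (27.4%). Counted by genes, the share with an IDR summit was higher for genes without a copy than for all genes. It was 58 of 310 (18.7%) against 66 of 371 (17.8%) where AACCCG and TGTCGG were absent upstream. Where either was present it was 5 of 35 (14.3%) against 12 of 104 (11.5%). Among snRNA genes, 7 of 67 with either hexamer and 13 of 62 with neither had no copy. Of those without a copy, 1 of the 7 and 0 of the 13 had an IDR summit, against 7 of the 67 and 4 of the 62. For snoRNA genes with either hexamer it was 4 of 28 without a copy, against 5 of 37 in all. With none of the hexamers, GTTCGA included, it was 50 of 276 against 54 of 287. Within snRNA and snoRNA genes the direction was thus not uniform, and the joint count mixes them. Whether copies lower the snRNA share was not tested.

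The strongest snoRNA peaks fell into 2 kinds of location. snoRNA genes outside protein-coding genes had 96 peaks, of which 32 were in the IDR list (33.3%, interval 24.0 to 43.7), and 14 of the 60 outside promoter windows were (23.3%). Among them M7.15 had a pooled score of 82.0, with 44.1 in replicate 1 and 39.9 in replicate 2, at −73. ZK484.11 had 70.9, with 49.996 in replicate 1 and 21.2 in replicate 2, at +74. F32E10.10, which is 1592 bp from the nearest protein-coding start, had 68.5, with 28.47 in replicate 1 and 42.1 in replicate 2, at +4. Y53F4B.47 had 67.4 at −99, and F09G2.14 had 63.4 at −59, with replicate 1 below replicate 2 at both (21.4 and 45.9 at Y53F4B.47, 18.9 and 44.2 at F09G2.14). Y47D3B.25 (60.5), Y73B6A.15 (58.7) and F30H5.4 (55.9) lay 2425, 2857 and 9367 bp from the nearest protein-coding start, so their summits lie outside the promoter windows. Of the first 5 of these snoRNA peaks, F32E10.10 lay outside promoter windows, while M7.15 (near klc-1), ZK484.11 (near oaz-1), Y53F4B.47 (near cmtr-1) and F09G2.14 (near F09G2.2) lay in one. Also in promoter windows of neighbours stood Y17G7B.25 (58.3, near ippk-1), F37F2.4 (54.2), Y53F4B.48 (53.8, near gst-27) and D2021.6 (50.3, near sdha-1, a subunit gene of succinate dehydrogenase).

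The second kind is snoRNA genes inside a protein-coding gene on the same strand, with 111 peaks and 29 in the IDR list (26.1%, interval 18.2 to 35.3), but 10 of the 72 outside promoter windows (13.9%, interval 6.87 to 24.1). The strongest was at F54E7.10, a snoRNA in the ribosomal protein gene rps-12, with a pooled score of 103.7, and with 47.0 in replicate 1 and 54.0 in replicate 2. Its summit lay at −245, 128 bp upstream of ska-3, whose start was nearer than that of the snoRNA. Ribosomal protein genes with rps or rpl names hosted 8 such peaks, 6 of them in the IDR list. Beside F54E7.10 the 6 were D1007.20 in rpl-24.1 (58.7), R151.11 in rpl-6 (47.1), B0041.9 in rpl-4 (46.3), F28C6.11 in rpl-26 (45.7) and Y24D9A.9 in rpl-7A (38.9). All 6 summits lay in a promoter window and between 245 and 481 bp upstream of the snoRNA. The summit at K07C5.11 (57.4) lay 398 bp upstream of that snoRNA and 256 bp upstream of its host nol-56, a core protein gene of box C/D snoRNPs. Its replicate scores were far apart, with 11.8 in replicate 1 and 47.2 in replicate 2. Other snoRNA peaks in host genes were C02F5.15 in fbxl-1 and rfs-1 (60.4, at −4), K02F3.15 in zip-2, a bZIP factor gene (59.7, at +462), C14C10.8 in ril-2 (53.3, at −57) and Y37E3.21 in Y37E3.8 (51.3, at −497), all in promoter windows. snoRNA genes in a gene on the opposite strand had 24 peaks, 4 of them in the IDR list (16.7%, interval 4.74 to 37.4). The 5 highest-scoring snoRNA peaks outside the IDR list were T25D10.11 (30.7), Y39A1A.30 (30.7), Y32G9A.15 (30.2), F30A10.16 (29.6) and F11A10.9 (29.5).

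**Figure D2:**
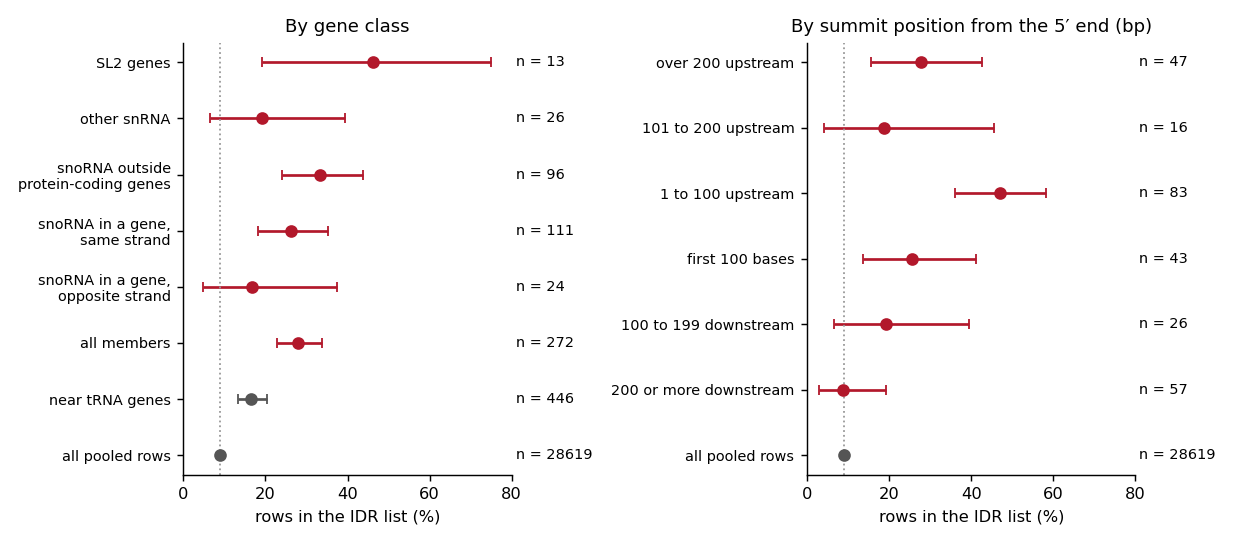
Percent of pooled peaks in the IDR list (x axes) with exact binomial 95% intervals, by class of the nearest RNA gene (left) and by summit position in bp from its 5′ end (right); red points are sn/snoRNA peaks, grey points are peaks near tRNA genes and all pooled peaks, and the dotted line is the share of all pooled peaks, 8.98%. SL2 genes (46.2% of 13) and summits 1 to 100 bp upstream (47.0% of 83) had the highest shares plotted, with wide intervals; the 2 SmY peaks are in the total only.

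Summits of the stronger peaks gathered just upstream of the RNA genes. The 76 IDR peaks had a median position of −32.5 bp from the annotated 5′ end (quartiles −83 and 5), against 16.5 bp (quartiles −94 and 215) for the 196 others. Of the 76, 55 lay upstream, 16 inside and 5 downstream of the gene, and 39 lay 1 to 100 bp upstream. Read the other way, the IDR list held 39 of the 83 peaks 1 to 100 bp upstream (47.0%, interval 35.9 to 58.3) and 5 of the 57 at 200 bp or more downstream (8.77%, interval 2.91 to 19.3). The share 1 to 100 bp upstream was 22 of 35 (62.9%) in protein-coding promoter windows and 17 of 48 (35.4%, interval 22.2 to 50.5) outside them. Beyond 200 bp upstream it was 11 of 24 (45.8%) inside such windows and 2 of 23 (8.70%) outside. Away from protein-coding promoters, high scores gathered in the 100 bp before the RNA, while in promoter windows they also stood farther upstream. Same-strand snoRNA genes had the widest IDR positions of the classes with 10 or more IDR peaks (quartiles −358 and −4), and for the 6 SL2 peaks the quartiles were −54 and −19.

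**Figure D3:**
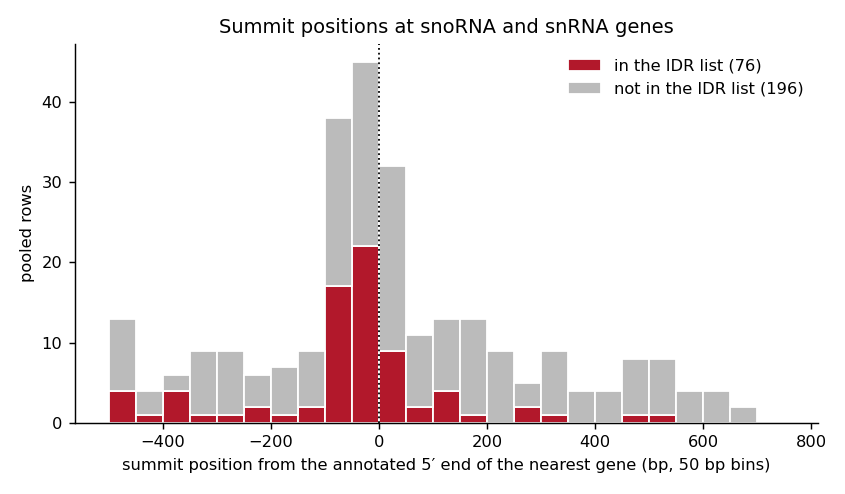
Number of sn/snoRNA peaks (y axis) by summit position from the annotated 5′ end of the nearest snoRNA or snRNA gene (x axis, bp, bins of 50 bp, upstream negative), with the 76 peaks in the IDR list in red and the 196 others stacked on them in grey. The red bars are tallest in the 100 bp before the 5′ end (39 of 76), while grey bars spread over the whole range.

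Hexamers shared by many snRNA genes upstream of their starts were counted beside the IDR summits of the same genes. AACCCG was the hexamer found in most of the 129 snRNA genes in the stretch 80 to 40 bases upstream (43 genes, 33.3%), and TGTCGG was the most frequent that does not overlap it (34 genes, 26.4%). Both were picked for their frequency there. In the same stretch 0.381% of protein-coding starts held AACCCG and 0.340% held TGTCGG. Of the 346 snoRNA genes, 25 had AACCCG (7.23%) and 30 had TGTCGG (8.67%). Genes with either hexamer had an IDR summit in 12 of 104 cases (11.5%, interval 6.11 to 19.3), against 58 of 349 (16.6%, interval 12.9 to 20.9) among genes with neither of these hexamers nor GTTCGA. For snRNA genes alone the counts were 7 of 67 (10.4%) with either hexamer and 4 of 62 (6.45%) without. For snoRNA genes alone they were 5 of 37 (13.5%) with either hexamer and 54 of 287 (18.8%) with neither of these nor GTTCGA. The difference thus ran in opposite directions in snRNA and snoRNA genes as wholes, which the joint count mixes. The 62 include the 12 SL1 genes, which had no pooled peak. By class, SL2 genes ran the other way, with 3 of 15 against 3 of 3. So did same-strand snoRNA genes, with 3 of 12 against 23 of 160. The remaining classes with both sorts of gene ran as snRNA or snoRNA genes did as wholes. The intervals of genes with and without the hexamers overlap.

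GTTCGA was counted in a window chosen after its positions were seen, so the following is a description. It stood in the last 50 bases before 22 of the 346 snoRNA genes (6.36%) and before none of the 129 snRNA genes, against 0.691% of protein-coding starts. Of the 22 genes, 20 had a pooled peak (90.9%) and 8 an IDR summit (36.4%, interval 17.2 to 59.3), against 150 (52.3%) and 54 (18.8%, interval 14.5 to 23.8) of the 287 snoRNA genes with none of the hexamers. The 7 IDR peaks nearest to such genes were at F32E10.10 (68.5), F30H5.4 (55.9), Y43F8C.22 (47.6), F55A11.10 (46.4), F12F6.11 (38.2), C05D2.15 (32.0) and C41C4.11 (30.8). Their summits lay near the annotated start, at a median of 4 bp (quartiles −2.5 and 25), and 5 of the 7 lay outside protein-coding promoter windows. Scores of the 7 were between 17.2 and 29.8 in replicate 1 and between 14.7 and 42.1 in replicate 2.

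Motifs were also counted within 50 bp of the summit, on either strand. GAGAGA was found at 9 of the 76 (11.8%), against 26.8% of all IDR peaks and 12.2% of all pooled peaks. GTTCGA was found at 9 of 76 (11.8%), against 3.97% of all IDR peaks and 20.6% of pooled peaks near tRNA genes, and outside promoter windows at 7 of 31. AACCCG, which was picked for being common upstream of snRNA genes, so that its presence near these genes is no finding, was found at 10 of 76 (13.2%), against 22 of the 196 sn/snoRNA peaks outside the IDR list (11.2%). TTTATG, a core of the kind posterior Hox proteins bind, was found at 6 of 76 (7.89%), against 11.3% of all IDR peaks and 9.28% of all pooled peaks. CAGCTG, an E-box, was found at 5 of 76 (6.58%), against 4.75% of all IDR peaks. These counts describe letters in the reference, not bound sites.

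Most sn/snoRNA peaks overlapped a peak in the lists of both replicates. Of the 272, 190 (69.9%) overlapped a peak in each replicate list, against 51.4% of all pooled peaks. All 76 in the IDR list did, as did 2542 of the whole IDR list of 2570 (98.9%). Of the 76, 50 (65.8%) were among the 2570 highest-scoring peaks of each replicate, against 53.3% of all IDR peaks. Replicate 2 scored higher at 49 of the 76, with a median ratio of replicate 2 to replicate 1 of 1.29 (quartiles 0.846 and 1.72), against 1.58 over all IDR peaks. Spearman's rho between the replicate scores was 0.574 over the 190 peaks and 0.0151 over the 76 IDR peaks, against 0.551 over 14698 pooled peaks and 0.183 over 2542 IDR peaks. These values describe peaks of the same pair of libraries, and the second is taken over peaks chosen for a high pooled score. Scores in replicate 2 were furthest above replicate 1 at Y49E10.36 in the histone gene his-72 (26.6 in replicate 2, 4.45 in replicate 1), R151.11 (39.998 and 7.19) and C26C6.13 (28.1 and 5.06). The C26C6.13 values belong to its pooled peak of 22.9. Its highest peak, of 36.9, has the same 28.1 in replicate 2 but 17.9 in replicate 1, so that ratio may pair different replicate peaks. Replicate 1 was furthest above replicate 2 at C10C6.8 (25.8 in replicate 1, 8.53 in replicate 2) and at T08B2.13, whose pair of pooled peaks overlaps the same replicate peaks (26.5 and 11.1).

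**Figure D4:**
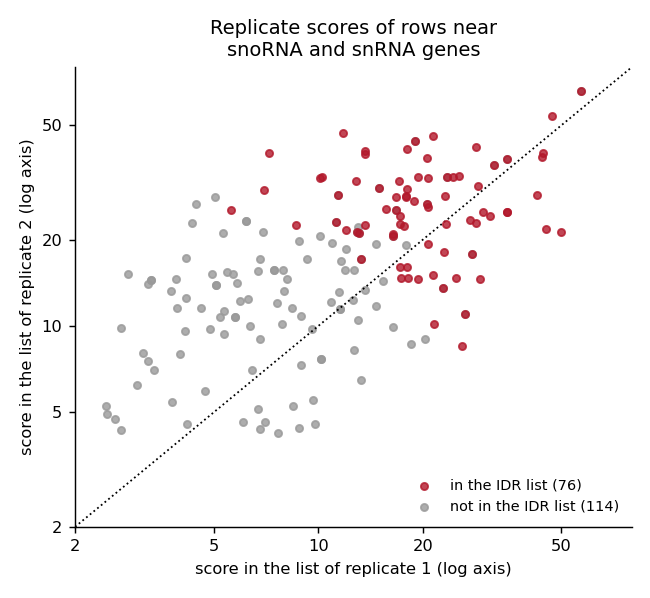
Score in the list of replicate 2 (y axis, log axis) against replicate 1 (x axis, log axis) for the 190 sn/snoRNA peaks that overlap a peak in both lists, 76 in the IDR list in red and 114 others in grey; the dotted line marks equal scores. Red points fill the upper right with little order among themselves, and more points lie above the line (136 of 190) than below it.

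The 272 peaks belonged to 223 nearest genes, of which 178 had 1 peak and 41 had a pair. The 4 genes with 3 peaks each were the snoRNA genes C26C6.13 (highest score 36.9, in the IDR list), F37A8.7 (33.2, in the IDR list), Y32G9A.15 (30.2) and ZK546.18 (20.8). Some neighbouring peaks of 1 gene overlap the same replicate peaks, as at sls-2.1, and others do not, as at W06H8.17. By chromosome, the IDR list held 24.3% of the 70 sn/snoRNA peaks on I, 28.1% of 64 on II, 37.8% of 37 on III, 34.1% of 41 on IV and 26.1% of 46 on V. Of all pooled peaks it held 9.22% on I, 8.93% on II, 9.70% on III, 8.75% on IV and 7.65% on V. On X it held 1 of 14 (7.14%, interval 0.181 to 33.9), against 9.45% of all pooled peaks on X. The rule's edge matters for single genes: just inside 500 bp were Y37E3.21 (497 bp, score 51.3), F08G2.10 (496 bp, 10.7) and W06H8.17 (494 bp, 14.7). Just outside were C06A1.9 (501 bp, score 92.6, in the IDR list), B0379.13 (505 bp, 20.7) and F16A11.12 (508 bp, 15.5).

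Genes for the protein partners of these RNAs had IDR summits in their promoter windows in 13 of 31 cases, against 8.93% of all protein-coding genes. Of the 8 genes of snoRNP proteins, 7 had one: fib-1 (70.0), the fibrillarin methyltransferase, nol-56 (57.4) and nol-58 (36.3), its box C/D partners, M28.5 (49.0), named snu-13 in RefSeq, K01G5.5 (44.3), named dkc-1 and the pseudouridine synthase of box H/ACA snoRNPs, and Y48A6B.3 (36.5) and nola-3 (31.2), which are further H/ACA proteins. Y66H1A.4, named garr-1, had its highest pooled peak at 22.9. Of 14 Sm and LSm genes, 6 had one: snr-2 (100.9), lsm-3 (78.0), snr-3 (70.8), snr-4 (60.4), snr-6 (36.5) and lsm-5 (34.8). None of the 7 SNAPc genes had one, and the highest pooled peak among them was 27.4, at snpc-1.1. Neither did the pair of SMN complex genes, smn-1 and smi-1. The peaks of nol-56 and snr-4 are themselves sn/snoRNA peaks, those of K07C5.11 and C52E4.8. A protein-coding gene was counted here by its promoter window, which is wider than the 500 bp used for the RNA genes.

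**Figure D5:**
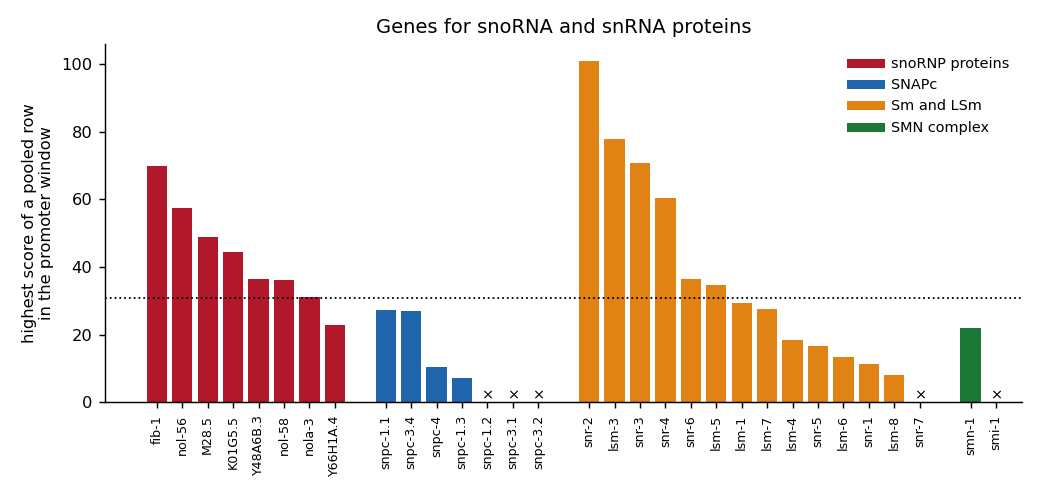
Highest score of a pooled peak (y axis, authors' scale) in the promoter window of each gene for snoRNP, SNAPc, Sm and LSm, and SMN complex proteins (x axis, 1 bar per gene, × where the window held no pooled peak); the dotted line is the lowest score in the IDR list, 30.8. Bars of 7 of 8 snoRNP genes and 6 of 14 Sm and LSm genes reach above it, and those of SNAPc and SMN genes stay below it.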

How the data were processed

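The labels describe ChIP-seq of an eGFP-EGL-5 fusion in L3 larvae, with 2 biological replicates. The authors deposited narrowPeak lists on ce11 for each replicate, for both pooled and after IDR thresholding. The aligner, the caller and the IDR cut were not given in the sources used here. The deposited lists give a score per peak on the authors' own scale, and a −log10 q-value, which reached its maximum of 3.54 at 58 of the 76 IDR peaks and was not used. Replicate numbers follow the ce11 lists; the ce10 lists carry them the other way round by their scores. Genes came from Ensembl release 115 (WBcel235); symbols came from RefSeq and matched for all 475 RNA genes. Positions, overlaps (1 bp) and families (edlib 1.3.9.post1, 80% identity) were computed in Python 3.11.15 with pandas 2.3.3 and scipy 1.17.1, and the position code was tested on simulated data. No test was run, because there is 1 group.

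Members and lists were chosen with earlier results of these data known; TGTCGG and the 50-base window for GTTCGA were chosen after seeing the sequences. Peaks are named as the 25 with the highest score in the IDR list, the 5 highest snRNA and snoRNA peaks outside it, the edges of the rule, replicate extremes and genes with 3 peaks; other names belong to small counts and were chosen after their values were seen. Of 33 protein genes listed, 31 were matched by symbol or locus tag.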

Additional observations from a re-analysis of the deposited data

How the results depend on the processing

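Of 68 repeats of the 7 counts, shares and medians, 53 stayed within 1.5 times the count or within the interval of the share or median. Some of the 53 could not have moved. A shorter IDR list leaves the number of peaks, their median, replicate overlap and promoter share as they are. The overlap setting acts only on the share found in both replicates. With a distance of 1000 bp there were 439 peaks near the RNA genes, with a median score of 15.1. Leaving out summits in protein-coding promoter windows left 167 peaks and 31 in the IDR list (18.6%), a median of 15.1, 33 genes with an IDR summit, 62.9% of peaks found in both replicates and, by construction, 0 in a promoter window. With the highest-scoring 1285 IDR peaks only, 47 peaks (17.3%) and 49 genes remained. Requiring an overlap of 50% of the shorter peak lowered the share found in both replicates to 59.6%.
With 1 replicate left out, using the other replicate's list and its 2570 highest-scoring peaks, there were 269 to 278 peaks near the RNA genes, 67 to 84 of them in the top list (24.9% to 30.2%, against 8.57% of either whole list), at 69 to 84 genes. The median score was 6.94 to 10.3, on lists of other scale whose own medians were 4.28 and 7.03, and 39.0% to 39.9% lay in promoter windows. The overlap with both replicates has no value with 1 replicate. No paired analysis was possible because there is 1 group. Depth is unknown, so no interval can be given for a single peak's score.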
